A study of Mus musculus with 16 samples.

Results

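A set of 10 genes that mark macrophages of the heart was followed through embryonic mouse hearts that had lost the chromatin remodeller CHD7 in the anterior mesoderm, and through their controls. They were *Csf1r*, *Cx3cr1*, *Adgre1*, *Mrc1*, *Lyve1*, *Aif1*, *Cd68*, *Cd163*, *Timd4* and *C1qa*, chosen by name for their known roles, with earlier results of these data known. They were read from the probe sets that name 1 gene only, and each of the 10 had 1 such probe set, among 19937 genes measured in this way. Each array (Affymetrix Mouse Gene 1.0 ST) held RNA of 1 whole heart of a C57BL/6 embryo, and there were 16 hearts in 4 groups of 4. The mutant hearts were Chd7 fl/fl;Mesp1-Cre, taken at E11.5 or E13.5, and each stage had its own control group. The paper calls the controls Chd7+/+;Mesp1-Cre. The labels call them WT and describe embryos of a Chd7 fl/+;Mesp1-Cre parent and a Chd7 fl/fl parent, and such parents have no Chd7+/+ offspring, so the control genotype and whether controls carried Cre are not settled here. *Mesp1-Cre* recombines in the cardiac and pharyngeal mesoderm, and whether the macrophages of these hearts carried the deletion was not measured. The sex of the embryos is not labelled.

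Macrophages are the first immune cells of the embryonic heart. They arise from yolk sac progenitors, depend on signalling through the CSF1 receptor, and take up dying cells and debris as the heart is remodelled. Monocytes from the fetal liver add to them later, and the resident macrophages of the mature heart are known for surface receptors such as LYVE1, TIM4 and the mannose receptor CD206.

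*Chd7* itself had a log2 FC (mutant minus control) of -1.29 (adjusted p = 0.00132) at the earlier and -1.08 (adjusted p = 0.0209) at the later stage, each with a standard error of 0.14. The heart label was borne out by *Tnnt2* and *Myh6*, whose mean levels lay at percentiles 99.9 and 98.7 of all probe sets, and the 8 cardiomyocyte genes had median log2 FC values of -0.012 and -0.021. Of the macrophage genes, 8 of 10 had mean levels above percentile 40 of all probe sets. *Cd163*, at percentile 20.6, and *Aif1*, at percentile 35.9, were dimmer, and *Timd4* lay at percentile 40.1. In all, 3 hearts stood apart from the others of their stage, with 38 genes (mutant E11.5 replicate 4), 27 genes (mutant E11.5 replicate 3) and 21 genes (control E13.5 replicate 1) more than 1 log2 unit above every other heart, so results that change without them are given both ways. Y-linked genes were high in all 4 controls but 2 of the 4 mutants at E11.5. At E13.5 they were high in 2 of the 4 controls and 1 of the 4 mutants.

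Promoters of 4 of the genes are shown because these genes split by developmental stage in the results that follow, *Mrc1* and *Cd68* differing between E11.5 and E13.5 and *Aif1* and *Cx3cr1* not passing the test. The sequences are those of RefSeq (GRCm38.p6), the 250 bases before each gene's start, read 5′ to 3′ on the gene's strand. *Mrc1* lies at chr2:14229164-14229413, plus strand, *Cd68* at chr11:69666171-69666420, minus strand, *Aif1* at chr17:35176053-35176302, minus strand and *Cx3cr1* at chr9:120068297-120068546, minus strand. Capitals mark GAGGAA or its reverse complement TTCCTC, a core recognised by ETS factors such as PU.1, the product of *Spi1* and a master regulator of macrophages.
Mrc1: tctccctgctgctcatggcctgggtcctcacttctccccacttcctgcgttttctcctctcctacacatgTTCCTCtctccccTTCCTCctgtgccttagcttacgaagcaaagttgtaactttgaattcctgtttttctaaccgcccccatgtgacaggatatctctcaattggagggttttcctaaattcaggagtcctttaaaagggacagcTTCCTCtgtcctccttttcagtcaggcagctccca
Cd68: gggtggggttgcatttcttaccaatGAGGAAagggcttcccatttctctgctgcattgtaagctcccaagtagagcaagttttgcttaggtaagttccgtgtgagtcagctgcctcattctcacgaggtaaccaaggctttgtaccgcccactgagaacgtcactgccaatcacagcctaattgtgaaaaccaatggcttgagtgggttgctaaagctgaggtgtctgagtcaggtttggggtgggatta
Aif1: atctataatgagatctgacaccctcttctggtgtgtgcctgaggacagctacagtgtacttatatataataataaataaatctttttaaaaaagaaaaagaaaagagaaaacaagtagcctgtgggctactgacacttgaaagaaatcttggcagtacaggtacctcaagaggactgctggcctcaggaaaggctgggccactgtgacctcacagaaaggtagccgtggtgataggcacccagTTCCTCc
Cx3cr1: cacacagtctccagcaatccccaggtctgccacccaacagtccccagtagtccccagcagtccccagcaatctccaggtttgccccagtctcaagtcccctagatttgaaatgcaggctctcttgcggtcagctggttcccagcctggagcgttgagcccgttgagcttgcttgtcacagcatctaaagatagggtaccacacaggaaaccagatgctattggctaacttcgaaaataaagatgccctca
The motif occurred 3 times in the *Mrc1* promoter, 1 time each in *Cd68* and *Aif1*, and not in *Cx3cr1*. It was also absent from the *Cd163* and *Timd4* windows, and 23.3% of 32851 mouse promoters of this length held it on either strand. Promoters of *Lyve1*, *Adgre1*, *C1qa* and *Csf1r* were not analysed here. With the motif, *Mrc1* and *Cd68* were called higher at E13.5 and *Aif1* was not called. Without it, *Timd4* was called lower, and *Cx3cr1* and *Cd163* were not called. The genes not analysed were all called higher, and a link between motif and stage was not tested.

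The loss of *Chd7* was compared first, as the question the arrays were made for. None of the 10 macrophage genes passed the test at either stage, which required both a log2 FC over 0.5 in size and an adjusted p under 0.05 in limma. Of all genes, 0.251% passed at E11.5, and 0.0451% did at E13.5. At an unadjusted p under 0.05, the macrophage genes that passed were *Cx3cr1* and *Lyve1* at E11.5 (2 of 10, against 9.34% of all genes) and *Lyve1*, *Aif1* and *C1qa* at E13.5 (3 of 10, against 3.94%). With the fold threshold kept and no adjustment, *Lyve1* was higher at E11.5 (1.33% of all genes) and *Lyve1* and *Aif1* were higher at E13.5 (0.597% of all genes). In whole hearts, a change in macrophage number, in RNA per macrophage or in other cells that express these genes cannot be told apart.

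*Lyve1*, the gene of a hyaluronan receptor carried by resident macrophages and by lymphatic endothelium, had the largest log2 FC of the 10 genes at each stage. Its log2 expression in mutant hearts at E11.5 was 9.23, 8.42, 9.27 and 9.42, and in control hearts 8.05, 8.70, 8.42 and 8.01. Of the mutant hearts, 3 lay above every control, and mutant replicate 2 lay within the range of the controls. At E13.5 the mutant hearts read 9.85, 9.71, 10.02 and 9.73, and the control hearts 9.26, 8.98, 9.12 and 9.17. Here the lowest mutant heart was above the highest control, which was the case for no other macrophage gene at E13.5 and for 2.06% of all genes. At E11.5 none of the 10 genes was fully apart in this direction, against 1.99% of all genes. *Lyve1* thus had log2 FC values of 0.79 (adjusted p = 0.142) and, at the later stage, 0.69 (adjusted p = 0.645), which are ratios of 1.73 and 1.61, and the standard error was 0.20 for both.

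The mean of the mutant effects at E11.5 and E13.5 uses the same hearts in 1 contrast, and in it *Lyve1* was the 1 macrophage gene of 10 that passed. Its mean log2 FC was 0.74 (95% interval 0.44 to 1.03, adjusted p = 0.0239), and 0.140% of all genes were called higher in this contrast. The call was close to the threshold. It was lost, with adjusted p between 0.0501 and 0.0694, when any of 10 hearts was left out (mutant E11.5 replicates 1, 3 and 4, control E11.5 replicates 1 and 4, mutant E13.5 replicates 1 and 3, and control E13.5 replicates 2, 4 and 5). It was also lost when the 3 hearts named above were all dropped (mean log2 FC 0.63, adjusted p = 0.181) and with the Y-linked genes as a covariate (0.67, adjusted p = 0.115). Over all alternatives the mean log2 FC stayed between 0.63 and 0.85, with adjusted p from 0.00143 to 0.549. At E11.5 alone, leaving out mutant replicate 2 gave *Lyve1* a log2 FC of 1.01 and an adjusted p of 0.0143.

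Other genes of lymphatic endothelium were read beside *Lyve1*, since that cell type shares it. *Prox1*, the transcription factor that defines the lineage, had log2 FC values of 0.019 and -0.007, and *Flt4*, the receptor for VEGF-C, had 0.043 and 0.079. *Pdpn*, the gene of podoplanin, had 0.38 and 0.39, with unadjusted p of 0.0337 and 0.0294. *Mmrn1* had 0.68 and -0.41 with a standard error of 0.70 at each stage. *Prox1* lay at percentile 84.5 and *Flt4* at percentile 67.2 of all probe sets, and which cells of the heart gave their RNA was not measured. Of the 7 lymphatic genes measured, 0 were called at E11.5 or E13.5, and their medians were 0.043 and -0.007 with *Lyve1* among them. At unadjusted p under 0.05, 2 passed at each stage (*Lyve1* and *Pdpn*), against 9.34% and 3.94% of all genes. After the group means were removed, *Lyve1* correlated over the 16 hearts at r = -0.38 with *Prox1*, 0.20 with *Flt4*, 0.26 with *Pdpn*, -0.29 with *Mmrn1*, -0.40 with *Reln* and 0.61 with *Nrp2*. These are descriptions of hearts that share their arrays' technical variation. The 10 endothelial and endocardial genes had medians of -0.042 and -0.13.

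**Figure D1:**
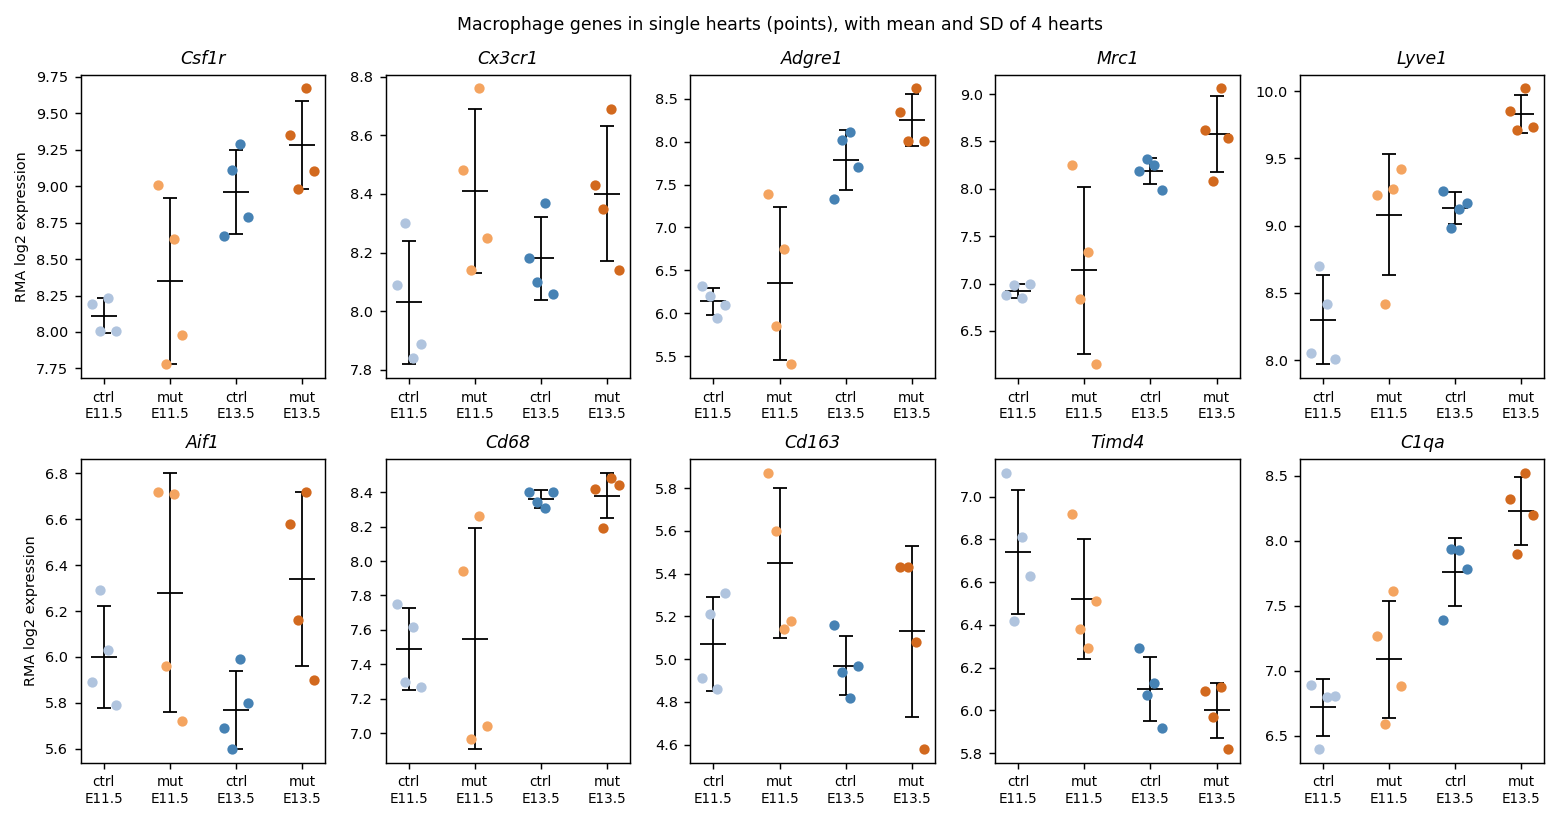
Points are RMA log2 expression in single hearts, with a black line and bars for the mean and SD of 4 hearts, for the 10 macrophage genes in control (blue) and mutant (orange) hearts at E11.5 (pale) and E13.5 (dark). Each panel has its own scale, since levels of different probe sets cannot be compared, and *Lyve1* at E13.5 is the panel in which mutant hearts (9.71 to 10.02) clear the controls (8.98 to 9.26).

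Of the genes that define macrophage identity, *Csf1r*, the receptor for CSF1 and IL-34, read 9.01, 7.78, 8.64 and 7.98 in mutant and 8.19, 8.01, 8.23 and 8.01 in control hearts at E11.5. The mutant hearts thus lay on both sides of the controls. At E13.5 *Csf1r* read 9.35, 8.98, 9.67 and 9.10 against 8.66, 9.11, 9.29 and 8.79, and the groups overlapped. Its log2 FC was 0.24 (adjusted p = 0.821) and 0.31 (adjusted p = 1). *Adgre1*, which encodes the F4/80 antigen, showed the same pattern at E11.5, with 7.39, 5.85, 6.75 and 5.41 in mutant hearts and a narrow range of 5.95 to 6.32 in controls. Its log2 FC was 0.20 there and 0.46 at E13.5, each with a standard error of 0.33, and the later mutant hearts (8.01 to 8.62) overlapped the controls (7.33 to 8.11). *Cx3cr1*, the fractalkine receptor, had 8.48, 8.14, 8.76 and 8.25 in mutant hearts and 8.09, 8.30, 7.84 and 7.89 in controls at E11.5, a log2 FC of 0.38 (unadjusted p = 0.0263, adjusted p = 0.446). At E13.5 the mutant hearts (8.14 to 8.69) and the controls (8.06 to 8.37) overlapped, and the log2 FC was 0.23 (adjusted p = 1).

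The scavenger and phagocytic receptors differed among themselves. *Mrc1*, the mannose receptor CD206, read 8.25, 6.84, 7.33 and 6.15 in mutant hearts at E11.5, whereas the controls lay between 6.85 and 6.99. This was the widest range of the 10 genes, and the log2 FC was 0.22 with a standard error of 0.31. At E13.5 *Mrc1* read 8.62, 8.08, 9.06 and 8.54 against 8.19, 8.31, 8.25 and 7.99, so 3 mutant hearts were above every control, and the log2 FC was 0.39 (adjusted p = 1). *Cd163*, the receptor for haemoglobin and haptoglobin complexes, was dim, ran from 5.14 to 5.87 in mutant and from 4.86 to 5.31 in control hearts at E11.5, and had log2 FC values of 0.37 and 0.16 (adjusted p = 0.596 and 1). *Timd4*, which encodes the phosphatidylserine receptor TIM4, was the exception in sign, with -0.22 and -0.10 (adjusted p = 0.724 and 1). At E11.5 the *Timd4* values of mutant hearts (6.29 to 6.92) overlapped those of controls (6.42 to 7.11), and at E13.5 likewise (5.82 to 6.11 against 5.92 to 6.29).

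The genes of intracellular proteins and of complement were no more uniform. *Aif1*, the gene of the actin-binding protein IBA1, had 6.58, 6.16, 6.72 and 5.90 in mutant hearts at E13.5 and 5.69, 5.60, 5.99 and 5.80 in controls, a log2 FC of 0.57 (unadjusted p = 0.0243, adjusted p = 1). Of these mutant hearts, 3 lay above every control. *C1qa*, which encodes a chain of the complement protein C1q, read 8.32, 7.90, 8.52 and 8.20 against 7.39, 7.94, 7.93 and 7.78, a log2 FC of 0.47 (unadjusted p = 0.0363, adjusted p = 1). At E11.5 the log2 FC was 0.28 for *Aif1* and 0.36 for *C1qa*, with overlapping groups. *Cd68*, the gene of a lysosomal glycoprotein, had 0.068 and 0.017, with 95% intervals of -0.42 to 0.56 and -0.47 to 0.51. The sign of the *Cd68* difference turned under several alternatives, and that of *Adgre1* and *Mrc1* at E11.5 turned to -0.14 and -0.15 without mutant replicate 1.

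**Figure D2:**
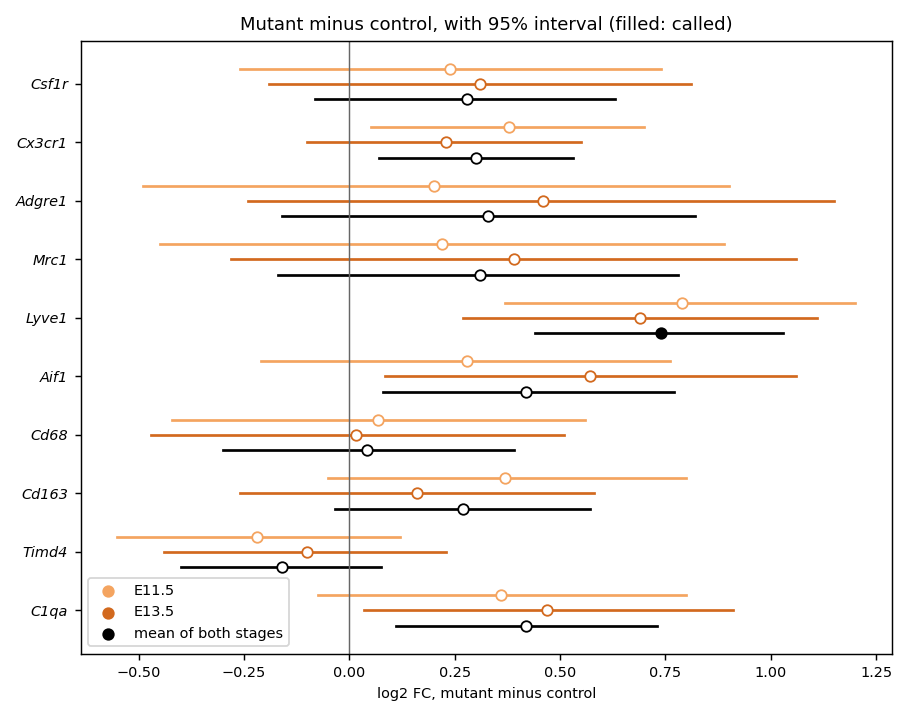
Log2 FC (mutant minus control) with 95% intervals for the 10 macrophage genes at E11.5 (pale), at E13.5 (dark) and as the mean of the 2 stages (black), where a filled point marks a gene that passed the test. The single filled point is *Lyve1* in the mean of both stages (0.74), and *Timd4* alone has its 3 points below 0.

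Read across the list, 9 of 10 genes had a log2 FC above 0 at both stages, against 29.3% of all genes. The median log2 FC was 0.26 and then 0.35, where that of all genes was 0.004 both times. These 9 signs are not 9 separate observations, because most of the genes varied together from heart to heart. In the mean over both stages, *Cx3cr1* (0.30, adjusted p = 0.456), *Aif1* (0.42, adjusted p = 0.514) and *C1qa* (0.42, adjusted p = 0.433) passed at an unadjusted p under 0.05 beside *Lyve1*, which makes 4 of 10, against 8.8% of all genes. The test of whether the mutant effect differed between E11.5 and E13.5 called 0 of the 10 genes and 0% of all genes. It had 0 of the 10 at an unadjusted p under 0.05, against 3.96% of all genes. For *Lyve1* this difference was -0.10, with a 95% interval from -0.69 to 0.49.

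For most of the macrophage genes the values were more widely spread among mutant than among control hearts. At E11.5 the SD was larger in mutant than in control hearts for 9 of 10 genes, against 56.0% of all genes, with a median SD over the 10 genes of 0.48 in mutant and 0.22 in control hearts. At E13.5 it was larger for 7 of 10 genes, against 55.2% of all genes, with medians of 0.28 and 0.15. Over all genes the median SD of mutant and control hearts was 0.22 and 0.20, and later 0.16 and 0.14. The difference in spread was not tested.

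Single hearts carried this spread. At E11.5, mutant replicate 1 was above every control for 9 of the 10 genes and replicate 3 for 8, whereas replicates 2 and 4 were below every control for 5 genes each. The mean over the 10 genes was 7.71, 6.85, 7.48 and 6.85 in these mutant hearts, and between 6.88 and 7.01 in the controls. *Lyve1* departed from this order, since its highest value at E11.5 was in mutant replicate 4, the heart with the lowest *Adgre1* and *Mrc1*. At E13.5 the mutant means were 7.94, 7.68, 8.10 and 7.65, all above the control range of 7.45 to 7.63. This rested on *Lyve1*, since the means of the other 9 genes, computed after seeing the data, were 7.73, 7.45, 7.88 and 7.42 in mutant hearts and overlapped the controls (7.25 to 7.47). Replicates 1 and 3 were above every control for 9 and 8 genes, and replicates 2 and 4 for 3 and 4 genes. Single control hearts were above every other control for up to 4 genes at either stage and below for up to 4 at E11.5. The counts of mutant replicates 2 and 4 lay near these, though 5 genes below at E11.5 was more than in any control. A control was set against fewer hearts than a mutant was, so the counts are not on a like basis.

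**Figure D3:**
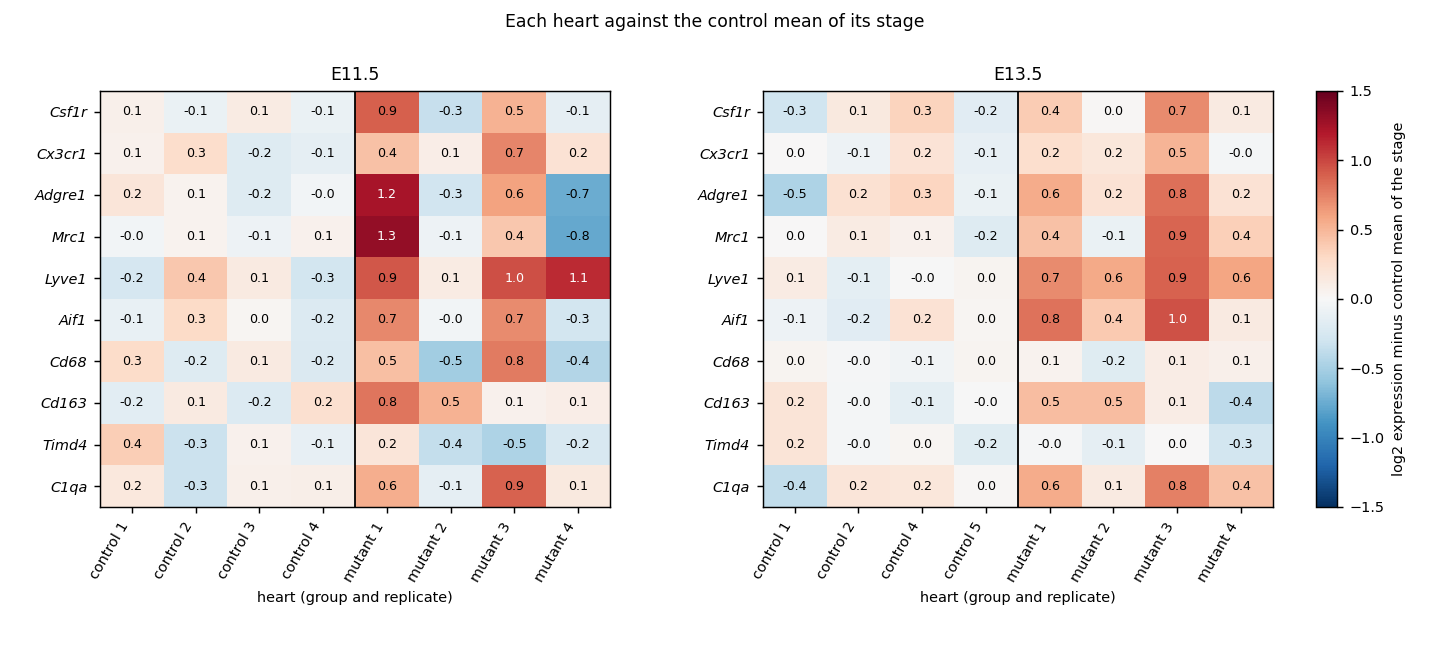
Log2 expression of each macrophage gene in each heart minus the control mean of its stage, with control hearts left and mutant hearts right of the black line, at E11.5 and E13.5. Mutant replicates 1 and 3 at E11.5 are red for most genes while replicates 2 and 4 are mixed or blue, and the *Lyve1* row stays above the control mean in all 8 mutant hearts.

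After the mean of each group was removed, 20 of the 45 pairs of macrophage genes correlated at r over 0.5 across the 16 hearts, and 11 at r over 0.7. *Csf1r* and *Adgre1* were the closest pair (r = 0.91), followed by *Adgre1* and *Mrc1* (0.90). *Csf1r* correlated at 0.82 with *C1qa*, and *Cx3cr1* at 0.81 with *Aif1*. *Lyve1* had lower values over the 16 hearts, with r between -0.13 (*Cd163*) and 0.53 (*Cx3cr1*), and 0.11 with *Mrc1*. The 8 hearts of each stage differed in this, since *Lyve1* correlated with *Mrc1* at 0.05 at E11.5 but at 0.55 at E13.5, where it also reached 0.69 with *Aif1* and 0.60 with *Cd68*. With *Csf1r*, *C1qa* and *Adgre1* it was lower at E13.5 (0.25, 0.12 and 0.10) than at E11.5 (0.40, 0.24 and 0.14). With the remaining genes it was higher at E13.5. *Cd68* correlated with *Csf1r* at 0.88 and with *Adgre1* at 0.79 at E11.5, and at 0.27 and 0.14 at E13.5. Its high values with these genes over all hearts thus rest on the earlier stage. With *Mrc1*, in contrast, *Cd68* correlated at 0.65 at E11.5 and at 0.73 at E13.5. *Cd163* ranged from -0.30 (*C1qa*) to 0.30 (*Mrc1*), and *Timd4* reached at most 0.44 (*Csf1r*). The hearts share array and RNA variation.

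The 8 genes outside the list whose values most resembled the mean of the macrophage genes above percentile 40 (standardised, group means removed, 16 hearts) were *Col3a1* (r = 0.93), *Col1a2* (0.91), *Arnt2*, *Glrx3*, *Kir3dl1*, *C3ar1* and *Dzip1l* (0.90 each) and *Pik3ap1* (0.89). Of these, *C3ar1*, a complement receptor, and *Pik3ap1*, a signalling adaptor of leukocytes, are known from myeloid cells. *Kir3dl1* was dim, at percentile 10.4 of all probe sets. *Col3a1* and *Col1a2* are fibrillar collagens of mesenchyme. *Col1a2* read 10.64, 9.89, 10.55 and 9.86 in the mutant hearts at E11.5 and between 10.03 and 10.05 in the controls, so mutant replicates 1 and 3 were high and 2 and 4 low here too. It was called higher at E13.5 than at E11.5 in control and in mutant hearts (log2 difference 0.61 in each), as was *Glrx3* (1.58 and 1.38). The part of mesenchyme, as read from these collagens, in the spread of the macrophage genes was not tested.

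More of the macrophage genes passed the test between E11.5 and E13.5 than between genotypes. In control hearts, 6 of 10 were called higher at E13.5 (*Csf1r*, *Adgre1*, *Mrc1*, *Lyve1*, *Cd68* and *C1qa*), against 16.5% of all genes, and 1 was called lower (*Timd4*), against 12.3%. In mutant hearts the same 6 were called higher, against 16.8% of all genes, and again *Timd4* lower, against 12.8%. The median of the 10 genes was 0.84 in control and 0.78 in mutant hearts, where that of all genes was 0.036 and 0.042. Each stage difference uses the hearts of the genotype comparisons, so these results are not independent of those. Stage and array batch cannot be told apart, and the SD within an array was 2.18 to 2.26 at E11.5 and 2.38 to 2.42 at E13.5.

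*Adgre1* had the largest stage difference. It lay between 5.95 and 6.32 in control hearts at E11.5 and read 7.33, 8.02, 8.11 and 7.70 at E13.5, a log2 difference of 1.65 (standard error 0.33, adjusted p = 0.00105), or 3.13 times the earlier level. In mutant hearts it rose by 1.90 (adjusted p = 0.000344). *Mrc1* rose by 1.26 in control hearts (adjusted p = 0.005), from between 6.85 and 6.99 to between 7.99 and 8.31, and by 1.44 in mutant hearts (adjusted p = 0.00211). *C1qa* rose by 1.03 (adjusted p = 0.00108) and 1.14 (adjusted p = 0.000498). In control hearts, the highest E11.5 value of each of these genes was below the lowest E13.5 value. The share of all genes set apart in this way was not computed, and 51.7% of all genes had an unadjusted p under 0.05 in this contrast.

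*Cd68* rose by 0.88 in control and 0.83 in mutant hearts, and the E13.5 controls lay within 8.31 and 8.40. *Csf1r* rose by 0.85 and 0.92, from 8.01 to 8.23 in the E11.5 controls to 8.66 to 9.29 at E13.5. *Lyve1* rose by 0.84 in control hearts (adjusted p = 0.00332) and by 0.74 in mutant hearts (adjusted p = 0.00717). Under quantile normalisation of the deposited values the *Lyve1* difference in mutant hearts was 0.51 and no longer passed (adjusted p = 0.0682), and under cyclic loess it was also 0.51 (adjusted p = 0.0663).

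*Timd4* ran the other way, falling from 7.11, 6.42, 6.81 and 6.63 to 6.29, 6.07, 6.13 and 5.92 in control hearts. Its log2 difference was -0.64 in control hearts (adjusted p = 0.00444) and -0.53 in mutant hearts (adjusted p = 0.0144). In mutant hearts this became -0.37 under quantile normalisation (adjusted p = 0.12), -0.36 under cyclic loess (adjusted p = 0.113) and -0.47 with median-centred arrays, and it missed the fold threshold when either replicate 1 of the E11.5 mutants (-0.39) or replicate 4 of the E13.5 mutants (-0.47) was left out. In control hearts, cyclic loess gave -0.49, also short of the fold threshold. The 9 lymphocyte genes measured likewise had stage medians of -0.60 in control and -0.49 in mutant hearts. Of these 9, 5 and 4 were called lower (12.3% and 12.8% of all genes). In each genotype 1 was called higher (16.5% and 16.8% of all genes). The cause of these falls was not tested. *Cx3cr1* had 0.15 and -0.005, *Aif1* -0.23 and 0.065, and *Cd163* -0.10 and -0.32 in control and mutant hearts, and none of these 3 passed. The sign of the *Cd163* value in control hearts turned to 0.17 under quantile normalisation.

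**Figure D4:**
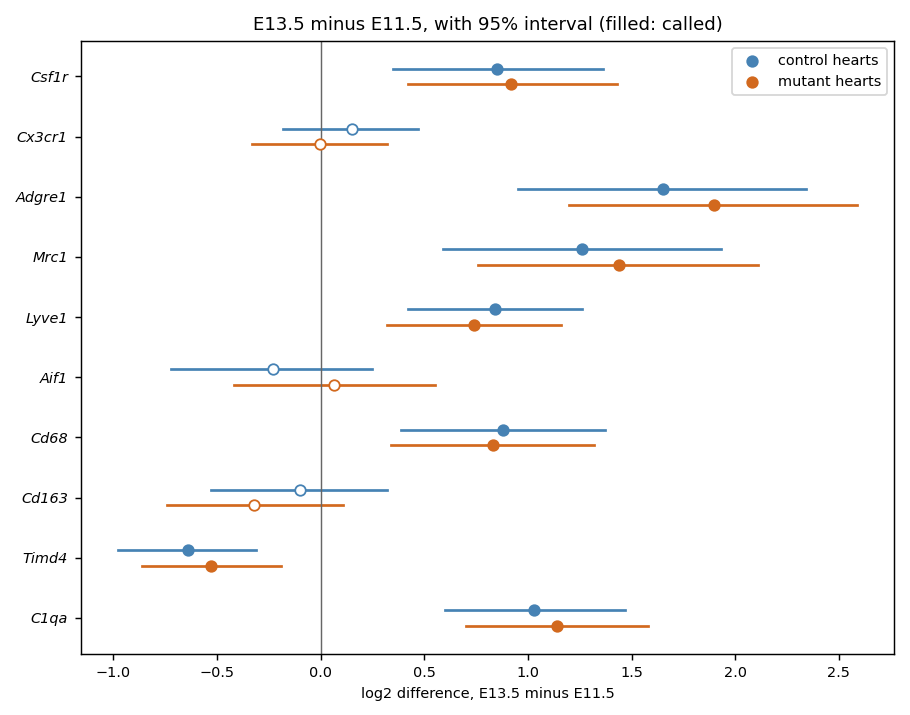
Log2 difference between E13.5 and E11.5 with 95% intervals for the 10 macrophage genes in control (blue) and mutant (orange) hearts, where filled points passed the test. The 6 genes called higher lie above 0 in both genotypes, led by *Adgre1* (1.65 and 1.90), *Timd4* lies below 0 (-0.64 and -0.53), and *Cx3cr1*, *Aif1* and *Cd163* are open points around 0.

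Further genes of macrophages and other myeloid cells were read in 8 lists, of whose 83 genes 79 were measured. In the genotype comparison, 0 of 79 were called at E11.5 (7 at unadjusted p under 0.05) and 1 was called higher at E13.5 (8 at unadjusted p), with medians of 0.027 and 0.10. Of all genes, 9.34% and 3.94% had an unadjusted p under 0.05 at these stages. The gene called was *Wfdc17*, a dim probe set (percentile 29.0 of all probe sets), which encodes a secreted protein of activated macrophages. It read 6.96, 6.37, 7.02 and 6.31 in mutant and 5.09, 5.22, 5.00 and 4.92 in control hearts at E13.5, a difference of 1.61 (adjusted p = 0.0366, standard error 0.24). Every mutant heart was above every control, which was the case for 2.06% of all genes at E13.5. The call was lost in 14 of the alternatives, among them fitting E13.5 alone (adjusted p = 0.0534), and each E13.5 heart was needed for it, since leaving out any of these 8 gave an adjusted p between 0.0522 and 0.15. Leaving out the E11.5 controls replicate 1 or 4 had the same effect (0.0648 and 0.0631).

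The complement and Fc receptor genes were read beside *C1qa*. *C1qc* had log2 FC values of 0.16 and 0.56, and *C1qb* had -0.069 and 0.43. Neither was called (adjusted p = 1 at E13.5). The E13.5 mutant hearts (8.94 to 9.26) were all above the controls (8.40 to 8.78) for *C1qc*, as for 2.06% of all genes. At E13.5 all 10 genes of this list were above 0, with a median of 0.34, and at E11.5 only 3 of 10 were, with a median of -0.052. None of the 10 passed at unadjusted p under 0.05 at either stage, and the test of the difference between stages called none. By stage, 5 of 10 were called higher at E13.5 in control hearts and 9 of 10 in mutant hearts. Of all genes, 16.5% and 16.8% were. *C1qb* rose by 1.10 and 1.61, *C1qc* by 1.34 and 1.74, and *Fcer1g* and *Tyrobp*, the adaptors of Fc receptors and TREM2, by 1.32 and 1.75 and by 1.23 and 1.26.

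Ligands and transcription factors of macrophages showed no call between genotypes. *Csf1*, the ligand of CSF1R, had log2 FC values of 0.32 and 0.45 (unadjusted p = 0.0688 and 0.0159, adjusted p = 0.575 and 1). *Spi1* had -0.12 and 0.31. Among scavenger receptors, *Cd36* had -0.28 and -0.39 (unadjusted p = 0.0162 and 0.00173, adjusted p = 0.384 and 0.507). *Stab1* had 0.25 and 0.18 (unadjusted p = 0.0327 and 0.107). At E13.5 every mutant heart lay below every control for *Cd36* and *Itgb5*, and above for *Stab1*. Of all genes, 2.06% were apart upward, and the share apart downward was not computed. By stage, 5 of 10 genes of the scavenger list were called higher at E13.5 in each genotype, among them *Msr1* (1.32 in control and 1.21 in mutant hearts). *F13a1*, the coagulation factor XIII chain typical of resident macrophages, had 0.43 and 0.48 between genotypes (adjusted p = 0.512 and 1) and rose by 1.27 and 1.32 with stage. The 13 genes of its list, which also holds *Wfdc17*, had genotype medians of 0.19 and later -0.012. Of these 13, 8 and later 6 lay above 0. With an unadjusted p under 0.05 there were 2 higher and 0 lower, then 3 higher and 1 lower. The lower gene was *Igf1*, with -0.25 and -0.32 (unadjusted p = 0.0783 and 0.0262). *Lyz2*, the lysozyme of myeloid cells, was also below 0, with -0.64 and -0.37 (unadjusted p = 0.00878 and 0.101, adjusted p = 0.314 and 1). At E11.5 its mutant hearts (8.15 to 8.91) all lay below the controls (9.19 to 9.41). The leukocyte gene *Ptprc* had -0.32 and 0.32. *H2-Aa*, of MHC class II, had 0.37 and 0.69 (adjusted p = 0.661 and 0.955). Over the 8 lists, 26 of 79 genes were called higher and 4 lower at E13.5 in control hearts. Of all genes, 16.5% and 12.3% were. In mutant hearts 32 of 79 were called higher and 4 lower, against 16.8% and 12.8% of all genes.

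Genes of other blood cells were read for the same hearts, and 1 of them was called between genotypes. The 8 monocyte genes measured had medians of 0.10 and 0.17. Of these, *Plac8* (percentile 39.7 of all probe sets) was called higher at E11.5 (log2 FC 1.82, adjusted p = 0.00773), and it had 1.57 at E13.5 (adjusted p = 0.0536). At E11.5 it read 7.95, 7.81, 7.67 and 8.14 in mutant hearts, the highest in replicate 4, where most macrophage genes were low, and 6.06, 6.25, 6.27 and 5.70 in controls. It missed the test without the 3 hearts (1.81, adjusted p = 0.0731) and with array weights (1.83, adjusted p = 0.0675). The 12 neutrophil genes had medians of 0.10 and 0.31, and none was called. At unadjusted p under 0.05, 0 passed at E11.5 and 5 did at E13.5, against 9.34% and 3.94% of all genes. The largest at E13.5 were *Ngp* (1.40) and *S100a8* (1.03, adjusted p = 0.916), and the mean of the list ran from 5.58 to 5.82 in control and from 5.68 to 6.54 in mutant hearts. The 5 platelet genes measured lay below 0 at both stages (medians -0.49 and -0.99), and 1 of them, *Pf4*, is also on the list of *F13a1*. None was called, but 4 had an unadjusted p under 0.05 at E13.5, against 3.94% of all genes. *Treml1* had -0.99 there (adjusted p = 0.404). The mean of the platelet list ran from 8.84 to 9.91 in control and from 7.94 to 8.81 in mutant hearts at E13.5. The part of these cells in the values of the macrophage genes was not tested. The 8 microglial genes had medians of -0.15 and -0.037.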

How the data were processed

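RNA of single whole hearts was hybridised to Affymetrix Mouse Gene 1.0 ST arrays. The authors deposited log2 values, which they had obtained by RMA (affy), a method that removes background, brings arrays to a common distribution and combines the probes of a set. Versions, and whether both stages were normalised together, are not given in the sources used here. The 34760 probe sets ranged from 2.74 to 14.56. Of these, 21640 had 1 gene in the platform annotation, 1321 had several and 11799 had none. Every per-sample column of the table was used.

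The 16 arrays entered 1 limma fit (version 3.58.1, R 4.3.3) of group means with 12 residual degrees of freedom. Benjamini-Hochberg adjustment covered all probe sets of a contrast. A gene was called when its adjusted p was under 0.05 and its log2 difference over 0.5 in size, except that the difference between stages had no fold threshold. Contrasts were mutant minus control at each stage, their difference and mean, and E13.5 minus E11.5 in each genotype. Where a gene had several probe sets, the one with the highest mean was read. The fit was checked on simulated data. No source says whether hearts came from separate litters, so p values measure the spread between these hearts only. The number of arrays limits the precision.

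The macrophage genes and 19 other lists were chosen with earlier results of these data known. The paper already lists *Plac8* at E11.5 and *Wfdc17* at E13.5 among its changed genes from these arrays, so those calls repeat the paper's. Named beside the macrophage genes were listed genes that were called or had the smallest p of their list (up to 3), and the 8 genes nearest to the macrophage genes. Other genes of the lists (*Nrp2*, *Flt4*, *Prox1*, *Mmrn1*, *Reln*, *Spi1*, *Ptprc*, *Tnnt2* and *Myh6*) were added for their roles or after their values were seen, and of the listed genes called between stages only some are named. Promoter windows came from a RefSeq table (GRCm38.p6), where 6 of the 10 genes were used. Over all probe sets, hearts of a stage with the same replicate number did not vary together (correlation of deviations between -0.0596 and 0.00816 over the shared numbers). Pairing that touched few genes would not show in this. Alternatives were each stage fitted alone, another prior, array weights, 3 other normalisations, filters and choices of probe sets, a replicate term, the Y-linked covariate, no fold threshold, and each heart left out. Plots used matplotlib 3.10.9 (Python 3.11.15).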

Additional observations from a re-analysis of the deposited data

Results flagged for a closer look

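Of 196 groups of 4 hearts tested over 49 genes, 6 held 1 heart far from the other 3 by Dixon's test, and chance marks about 1 group in 20. None of the 6 was in a macrophage gene of the set of 10. *Prox1* read 9.81 in control E13.5 replicate 1, against 10.02 to 10.04 in the other controls. *Ltf*, a neutrophil gene, read 6.20 in control E13.5 replicate 2, against 5.23 to 5.35. *Treml1* read 8.10 in mutant E11.5 replicate 1, against 8.33 to 8.38. Among the genes nearest to the macrophage genes, *Arnt2* read 8.46 in control E13.5 replicate 4 (others 8.37 to 8.38), *Dzip1l* read 9.0 in control E11.5 replicate 1 (others 8.85 to 8.86), and *Pik3ap1* read 7.06 in control E11.5 replicate 4 (others 7.36 to 7.41).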

How the results depend on the processing

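The total number of macrophage genes called in each stage comparison, in the genotype comparison at E13.5 and for the difference between stages stayed within 1.5 times its value under every alternative run. The single lower call in it, *Timd4*, went to 0 in mutant hearts under quantile normalisation, cyclic loess, centred arrays and without either of 2 hearts, and in control hearts under cyclic loess. At E11.5 the count ran from 0 to 1 as each heart was left out. The call of *Lyve1* in the mean over both stages became 0 genes with a replicate block (0.71, adjusted p = 0.549), with the Y-linked covariate and when the 3 hearts apart from the rest were dropped together, which was tried after seeing the data, and ran from 0 to 1 as each heart was left out. The blocked fit changed no other count for the macrophage genes, and it also ended the calls of *Plac8* at E11.5 (adjusted p = 0.143) and in the mean over both stages (adjusted p = 0.0566), and those of *Wfdc17* at E13.5 (adjusted p = 1) and in that mean (adjusted p = 0.329).

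Signs turned where values lay near 0, and the cause was not tested. The genotype difference of *Cd68* at E11.5 was -0.041 with array weights, -0.032 without the 3 hearts and from -0.17 to 0.26 as each heart was left out, and at E13.5 it was -0.003 with the replicate block and from -0.015 to 0.082. With single hearts left out at E11.5, *Adgre1* ran from -0.14 to 0.52 and *Mrc1* from -0.15 to 0.55. The difference of *Lyve1* between stages was 0.20 without the 3 hearts, and from -0.32 to 0.014 as each heart was left out. Of the stage differences in control hearts, *Cx3cr1* became -0.005 under cyclic loess, and *Cd163* 0.17 under quantile normalisation and 0.15 under cyclic loess. In mutant hearts *Cx3cr1* became 0.008 with array weights, 0.050 with centred arrays and 0.10 without the 3 hearts, and ran from -0.10 to 0.11, and *Aif1* became -1.5e-04 without the 3 hearts and ran from -0.12 to 0.21. With 4 hearts a group the intervals are wide (for *Adgre1* at E13.5, -0.24 to 1.15), so differences within them were not detectable.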
